A study of Drosophila melanogaster with 23 samples.

Results

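Nuclei of the anterior hunchback band (D1) were compared with nuclei of the posterior giant band (D7), the ends of the axis sampled in Drosophila melanogaster embryos at the cellular blastoderm stage. The 4 ATAC-seq peak lists of these bands, 2 for each, and the 4 whole-embryo lists of the same strains were chosen by their labels. They are 8 of the 23 samples of the series. ATAC-seq maps accessible chromatin by the insertion of a transposase, and each list holds the peaks that the authors called in a single library over purified genomic DNA.

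D1 nuclei carried the tag UNC84-3xFLAG, a FLAG-marked nuclear envelope protein, driven by the anterior enhancer of hunchback in construct hb_anterior_Hs34_UNC84-3xFLAG. D7 nuclei carried the tag driven by the posterior enhancer of giant in construct gt_posterior_Hs43_UNC84_3xFLAG. Replicates 1 and 2 of each band were independent transgenic strains with the same construct, all in a wild-type background. Embryos of both bands were pooled and frozen 190 min after collection began, nuclei holding 340 ng of DNA were tagmented, and libraries had 12 cycles of PCR. Tagged nuclei were pulled down with an anti-FLAG antibody, whereas the whole-embryo libraries of the same strains were made without the pull-down. All 8 lists therefore come from embryos with an extra copy of an enhancer of hunchback or of giant. The purity of the pulled-down nuclei was not measured in the lists.

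At this stage the embryo is a single layer of nuclei whose position along the body axis is set by maternal gradients and by gap genes, which include hunchback and giant. Bicoid, the anterior maternal factor, activates hunchback in the anterior of the embryo. Gap and pair-rule factors bind enhancers and set the domains of the Hox genes, whose proteins give segments their identity. In the bithorax complex, the regulatory regions of Ubx, abd-A and Abd-B lie along the chromosome in the order of the segments they serve.

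The peak lists of D1 nuclei held 22169 peaks in replicate 1 and 19117 in replicate 2, against 18529 and 17970 in D7 nuclei. Both D1 lists were longer than both D7 lists. The difference in means of 2393.5 peaks had a two-sided exact permutation p of 0.33, the smallest that 2 lists against 2 can give. The covered length was 14.3 and 12.3 Mb in D1, against 12.6 and 12.0 Mb in D7, and these overlap. Whole embryos of the D1 strains gave 20920 and 19948 peaks, and those of the D7 strains 20783 and 19612. Read depth is unknown, so a longer list cannot be told apart from a deeper library. In replicate 1 of both bands no peak carried a letter, whereas 31.1% of the D1 peaks and 32.1% of the D7 peaks of replicate 2 were lettered sub-peaks. Ranks were therefore compared within a replicate number.

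The ends of the axis shared most of their accessible chromatin. Peaks of the 4 tagged lists merged into 22978 regions on X, 2L, 2R, 3L, 3R and 4, and 13772 of them (59.9%) had a peak in every list. The base pairs shared by 2 lists, as a percentage of those covered by either, were 74.7% for the D1 pair, 79.0% for the D7 pair and 72.5% to 76.3% between the bands. Lists of one band overlapped by a mean of 2.40 percentage points more than lists of opposite bands (one-sided exact permutation p = 0.33, the smallest that 3 pairings can give). In whole embryos the same difference was -0.795 points.

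A smaller set was found at one end and missing at the other. In all, 1129 regions (4.91%) were in both D1 lists and neither D7 list, and are called D1-only here. In the other direction 292 regions (1.27%), called D7-only, were in both D7 lists and neither D1 list. With 2 lists against 2, no test of a single region can go below a p of 0.33. In the 4 whole-embryo lists, merged in the same way into 22865 regions, 290 (1.27%) were found in the D1 strains alone and 226 (0.988%) in the D7 strains alone. By the same count, 640 regions (2.79%) were in the replicate 1 lists of both bands and neither replicate 2 list, and 96 (0.418%) in the replicate 2 lists alone. The D1-only count thus exceeded each of these, whereas the D7-only count of 292 lay close to those of the strains and below that of replicate 1.

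The excess of D1-only regions depended on list length. D1-only regions made up 79.5% of the D1-only and D7-only regions together. With each of the 4 lists shortened to the length of the shortest by the authors' fold, 818 regions were D1-only and 617 D7-only, so that D1-only made up 57.0%. Shortened by peak width instead, the counts were 658 and 588, or 52.8%. Within replicate 1, 4665 regions (20.3%) were in the D1 list and not the D7 list and 1419 (6.18%) in the D7 list and not the D1 list. Within replicate 2 these counts were 2741 (11.9%) and 1631 (7.10%).

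**Figure D1:**
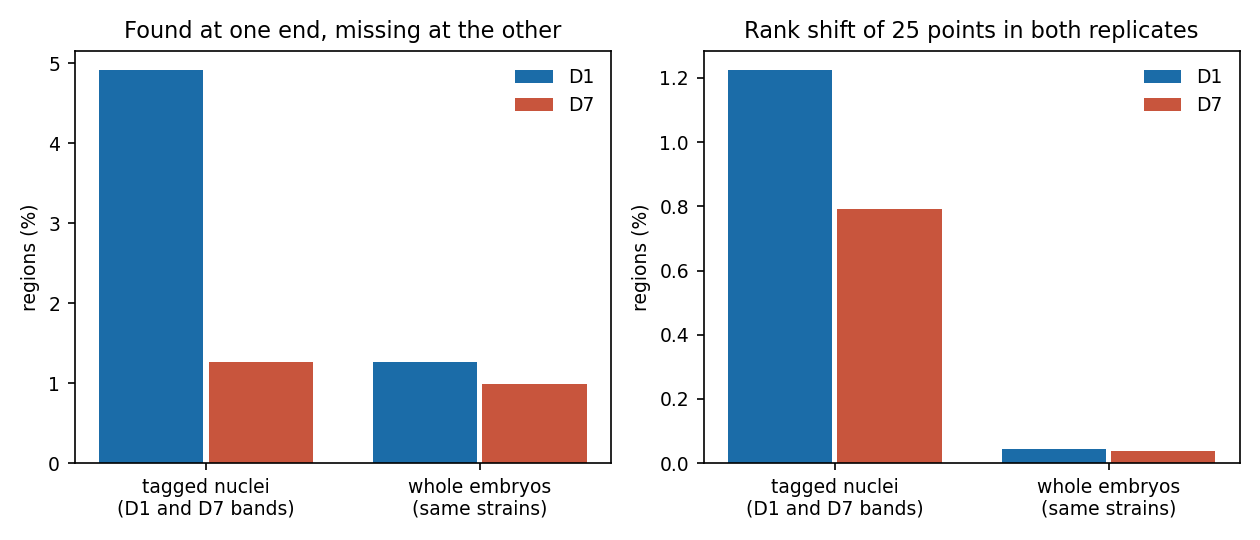
Share of regions called for D1 (blue) and for D7 (red) in tagged nuclei and in whole embryos of the same strains, in %. At left, regions in both lists of one end and neither of the other, with 4.91% for D1 and 1.27% for D7 in tagged nuclei. At right, regions ranked at least 25 percentile points higher at one end in both replicates, with 1.22% and 0.793% in tagged nuclei and 0.0453% and 0.0378% in whole embryos.

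D1-only and D7-only regions were narrow and mostly ranked low. Their median width was 318 bp for D1-only and 342 bp for D7-only, against 686 bp for regions found in all 4 lists. By the authors' fold over genomic DNA, 60 D1-only regions (5.31%) and 13 D7-only regions (4.45%) ranked above the median of both lists that held them. The nearest region common to the 4 lists lay at a median of 1.80 kb from D1-only regions and 0.981 kb from D7-only regions. Both features follow in part from the rule. Widths are those of joined regions, and joining peaks of 4 lists gives wider regions than joining those of 2. A called region must also be missing from 2 lists, which favours weak sites.

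Whole embryos of both strains held many of the regions that separated the bands. Of the D1-only regions, 321 (28.4%) were in all 4 whole-embryo lists of the D1 and D7 strains and 204 (18.1%) in none, and of the D7-only regions 79 (27.1%) and 50 (17.1%). Among all regions 66.2% were in all 4. The whole-embryo lists differed by strain in the same direction for 60 D1-only regions (5.31%), found in both D1-strain lists and neither D7-strain list, against 1.01% of all regions. They differed in the opposite direction for 13 D1-only regions. For D7-only regions, 8 followed the D1 strains and 8 the D7 strains. A difference between the strains and one between the bands cannot be told apart in the tagged lists, since each band has its own strains. For those 60 regions and the 8 that followed the D7 strains, the whole-embryo lists do not separate them either. The 204 and 50 regions in none of these lists could not be checked in this way.

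The D1-only regions were spread over the chromosome arms, while the share of D7-only regions was highest on 3R with the bithorax complex included. Of the regions on an arm, 2.88% (chromosome 4) to 5.39% (X) were D1-only. D7-only regions made up 0.588% on X and 1.80% on 3R, and 0.967% on 3R once the windows of the bithorax complex were left out. The remaining arms had 1.11% (chromosome 4) to 1.39% (2L), and all arms together without those windows had 1.07%. In bins of 100 kb, D1-only regions fell into 613 bins, 332 of which held a single one, and D7-only regions into 182 bins, 145 with a single one. All coordinates are on build dm3.

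The densest bins of D1-only regions were on X and 2R. On X, between 8501097 and 8568450, 11 of 36 regions were D1-only, and this bin contains the window of the head gap gene oc described further on. D1 lists had peaks in 35 and 29 of these regions, against 16 and 16 in D7 lists, and whole embryos had 26 and 21 in the D1 strains and 26 and 26 in the D7 strains. On 2R, 9 of 30 regions between 20700100 and 20748347 were D1-only, with 29 and 25 found in D1 nuclei and 14 and 14 in D7 nuclei. Also on 2R, 9 of 47 regions between 2409038 and 2457289 were D1-only. The bins were chosen for their D1-only regions, which add to the D1 counts alone, so the excess of D1 in them is a description.

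D7-only regions were densest in the bithorax complex and in a stretch of 2R. Between 12512771 and 12596037 on 3R, 21 of 60 regions were D7-only, with 28 and 26 found in D1 nuclei and 58 and 51 in D7 nuclei. In the next bin, between 12621499 and 12699903, 18 of 53 were D7-only, with 21 and 23 found in D1 and 49 and 46 in D7. On 2R, between 17300397 and 17385568, 10 of 72 were D7-only, with 43 and 41 found in D1 and 65 and 50 in D7. In the 2R stretch the whole-embryo lists of the D1 strains, with 43 and 46 regions, were also below those of the D7 strains, with 47 and 56.

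The strongest D1-only regions were also peaks in whole embryos. The 10 with the highest rank in the weaker of their lists had folds of 3.83 to 5.73 in replicate 1 and 3.49 to 5.22 in replicate 2 of D1. The first, on X from 4350647 to 4351148, had the authors' folds of 5.22 and 5.22 in D1 nuclei and no peak in D7 nuclei. It was a peak in 4 of 4 lists of the neighbouring bands D2 and D3, in 0 of 4 lists of the central bands D4 and D5 and in 8 of 8 whole-embryo lists. The same pattern held for the region on X from 9660973 to 9661313, with folds of 4.39 and 3.53 in D1. Another, on 3R from 9704314 to 9704729, had folds of 3.83 and 3.55 and was likewise found in 4 of 4 and 0 of 4. Others of the 10, such as that on 2R from 20995142 to 20995676 (folds of 4.96 and 4.09), were in all 8 lists of D2 to D5 and 1 of 2 lists of D6.

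The strongest D7-only region lay on X from 20533896 to 20534418, in the window of the pair-rule gene run. Its folds were 5.72 and 5.50 in D7 nuclei, with no peak in D1 nuclei. The region that follows it, from 20534476 to 20534967, was found at both ends with folds of 2.49 and 2.05 in D1 and 6.70 and 6.02 in D7. On 2L, the region from 4312240 to 4312776 had folds of 5.01 and 4.10 in D7 and was found in 0 of 4 lists of D2 and D3 and 4 of 4 lists of D4 and D5. Another 4 of the 10 strongest lay in the bithorax windows. Of all 10, 8 were peaks in all 8 whole-embryo lists.

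Lists of the bands between the ends, which did not choose these regions, were then read in anterior to posterior order (D3, D2, D4, D5, D6). The drivers of D3 and D2 are the even-skipped stripe 1 and stripe 2 enhancers, that of D4 is from Dichaete, that of D5 from Kruppel, and that of D6 is the even-skipped stripe 5 enhancer. D1-only regions were found at 59.1% and 42.2% in the D3 lists, 63.6% and 32.7% in D2, 54.5% and 38.4% in D4, 48.6% and 46.2% in D5 and 21.9% and 17.3% in D6. D7-only regions were found at 15.1% and 6.85% in D3, 29.1% and 11.0% in D2, 74.7% and 64.0% in D4, 53.8% and 55.8% in D5 and 25.0% and 51.7% in D6. D7-only regions were thus most often found in D4 and least often in D3, and D1-only regions were least often found in D6. Of all regions, 71.7% and 64.9% were found in D3, 77.9% and 66.0% in D2, and 83.4% and 75.7% in D4. In D5 these shares were 80.6% and 77.0%, and in D6 62.3% and 67.1%. How much of the order comes from list length was not tested.

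Because list length can move both shares, the gap between them, D1-only minus D7-only, was taken, although this does not fully remove length. It was 33.9 ± 9.18 percentage points in the lists of D2 and D3 (SD, n = 4; 21.7 to 44.0) and -16.3 ± 12.4 points in those of D4, D5 and D6 (SD, n = 6; -34.4 to -3.12). The ranges did not overlap, and the difference of 50.2 points had a two-sided exact permutation p of 0.00476, the smallest that 4 lists against 6 can give. The 2 lists of a band are not independent, and with the 5 bands as units the p was 0.100. Among the 8 of these 10 lists with lettered peaks, the difference was 52.1 points (exact permutation p = 0.0286). Taken singly, the D7-only share differed by -38.7 points (exact permutation p = 0.0143), while the D1-only share differed by 11.6 points (exact permutation p = 0.262). A separation of anterior from other lists was already known from earlier work on these lists, so it is not independent support.

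In the 8 whole-embryo lists the gap was -0.714 ± 6.98 points (SD, n = 8). Whole embryos of the D1 strains had gaps of 8.02 and 2.67 points and those of the D7 strains -1.34 and -11.4 points (difference 11.7, exact permutation p = 0.33). The strain lists thus leaned the same way as the bands. The D1 and D7 tagged lists chose these regions, so their own gap was fixed in advance and cannot be set beside this difference. Without the bithorax windows the difference between anterior and other bands was 47.3 points (exact permutation p = 0.00476).

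**Figure D2:**
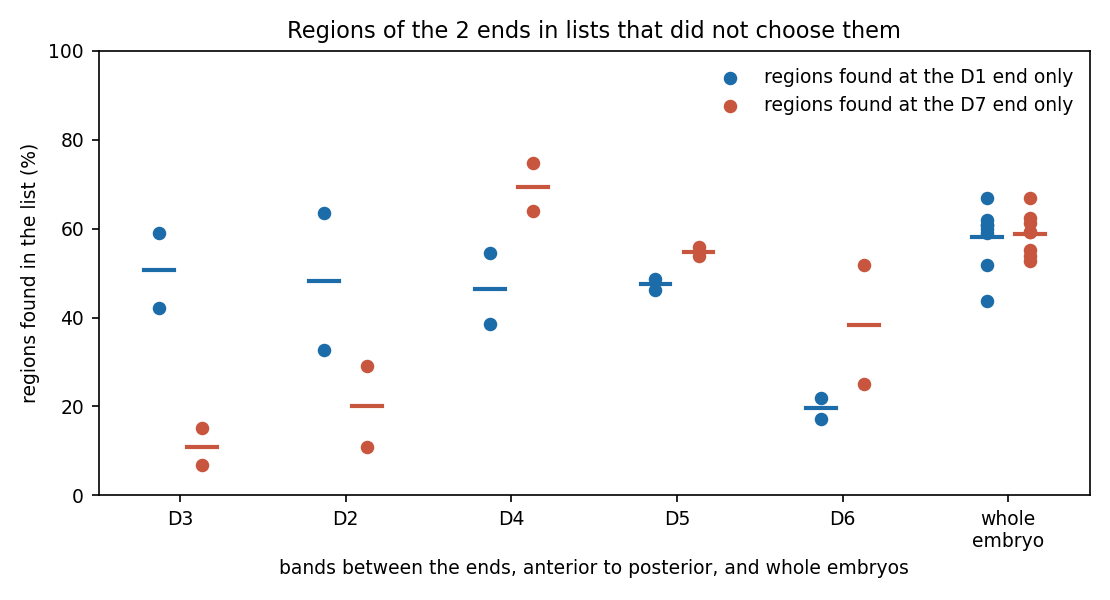
Share of D1-only (blue) and D7-only (red) regions found in each list that did not choose them, in %, for bands D3, D2, D4, D5 and D6 and for whole embryos. Each point is 1 list and each bar a mean; blue lies above red in D3 and D2, and red above blue in D4, D5 and D6, while whole-embryo lists overlap.

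Regions found at both ends also differed in strength. Each of the 13772 common regions was ranked by the authors' fold within each list, and a region was called where its percentile differed by at least 25 points the same way in both replicates. By this rule 160 regions (1.16%) ranked higher in D1 and 107 (0.777%) ranked higher in D7. In replicate 1 alone 458 (3.33%) and 453 (3.29%) passed, and in replicate 2 alone 936 (6.80%) and 790 (5.74%). Among the 13239 common regions that were also in the 4 whole-embryo lists of these strains, 162 (1.22%) and 105 (0.793%) passed in tagged nuclei. The same rule on the whole-embryo ranks of those regions called 6 (0.0453%) for the D1 strains and 5 (0.0378%) for the D7 strains. A lower rank can mean fewer nuclei with an open site or a less open site in each nucleus, and these cannot be told apart in bulk libraries.

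**Figure D3:**
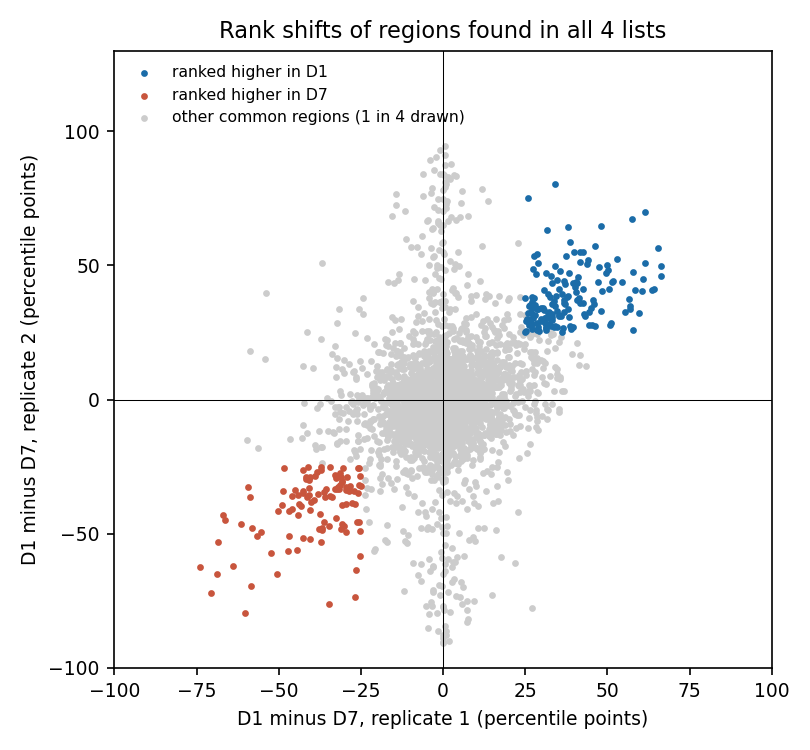
Difference in percentile (D1 minus D7) of common regions in replicate 1 (horizontal) and replicate 2 (vertical), in percentile points. Blue marks the 160 regions called for D1, red the 107 called for D7 and grey 1 in 4 of the others; replicate 2, with lettered sub-peaks, spreads more widely, with an SD of 19.9 points against 12.6 in replicate 1.

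The largest shift towards D1 was on 3R from 25982884 to 25983761, with the authors' folds of 5.72 and 5.79 in D1 nuclei and 1.87 and 1.80 in D7 nuclei. On 3L, the region from 5989356 to 5990103 had folds of 5.61 and 5.01 in D1 and 2.01 and 1.74 in D7. The region on X from 5567933 to 5569468 had 7.42 and 5.09 in D1 and 2.12 and 2.06 in D7. On 3R from 13373611 to 13374419 the folds were 5.66 and 4.30 in D1 and 2.21 and 1.97 in D7. On 2R from 20695587 to 20696769, just before one of the dense bins above, they were 8.95 and 7.28 in D1 and 2.52 and 2.57 in D7. All 5 regions were also peaks in every list of D2 to D6 and in all 8 whole-embryo lists, so that they differ in rank and not in presence.

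The largest shift towards D7 was on 2L from 12615797 to 12617156, with folds of 1.78 and 1.88 in D1 nuclei and 6.99 and 8.27 in D7 nuclei. The next pair lay in the bithorax complex. On 3R from 12591482 to 12592256, in the Ubx window, the folds were 2.48 and 2.19 in D1 and 11.3 and 9.87 in D7. From 12618448 to 12619199, in the abd-A window, they were 2.25 and 2.22 in D1 and 10.9 and 9.09 in D7. The other two of the 5 were on 3R from 1542270 to 1543009, with 1.91 and 1.87 in D1 and 6.25 and 5.69 in D7, and on 3R from 18703222 to 18703925, with 1.84 and 1.38 in D1 and 5.48 and 6.31 in D7. In these 5 regions both D1 folds were below both D7 folds.

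The ranks of these regions in the other bands also separated D2 and D3 from D4, D5 and D6, without a steady order among D4, D5 and D6. The median percentile of the D1-higher regions minus that of the D7-higher regions was 27.95 ± 6.14 points in the lists of D2 and D3 (SD, n = 4) and -15.9 ± 7.06 points in those of D4 to D6 (SD, n = 6). The difference was 43.9 points (exact permutation p = 0.00476, two-sided), with p = 0.100 over the 5 bands. In single lists the value was 27.8 and 36.7 points in D3, 23.9 and 23.4 in D2, and -17.1 and -19.0 in D4. It was -10.5 and -11.3 points in D5 and -9.56 and -28.1 in D6. In the 8 whole-embryo lists the value was -3.60 ± 3.73 points (SD, n = 8). This comparison was added after the presence result was seen.

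Patterning loci were read in windows placed on dm3 from general knowledge of where these genes lie. No annotation of that build was used, so a window is an approximate neighbourhood and not a gene model, and a region in it is not assigned to the gene. Of 25 windows, 24 were used, and counts were taken by the midpoint of a region. Their genes were chosen with earlier results of these data known. In 8 windows both D1 lists had more regions than both D7 lists, and in 4 both D7 lists had more. Both D1 lists were also longer than both D7 lists over all arms. With lists of equal length the counts did not overlap in 11 windows, against 12 as deposited. These were not the same windows: at equal length the counts of gt and dpp overlapped and those of cad did not. In whole embryos the counts of the D1 and D7 strains did not overlap in 5 of the 24 windows (Scr with ftz and Antp, abd-A, slp, wg and en). Of these, abd-A and slp also separated the bands, where the strains differed in the opposite direction. The smallest two-sided exact permutation p for a window is 0.33, the value of every window whose counts did not overlap. Windows elsewhere on the arms were not counted in this way, so these numbers of windows are a description.

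**Figure D4:**
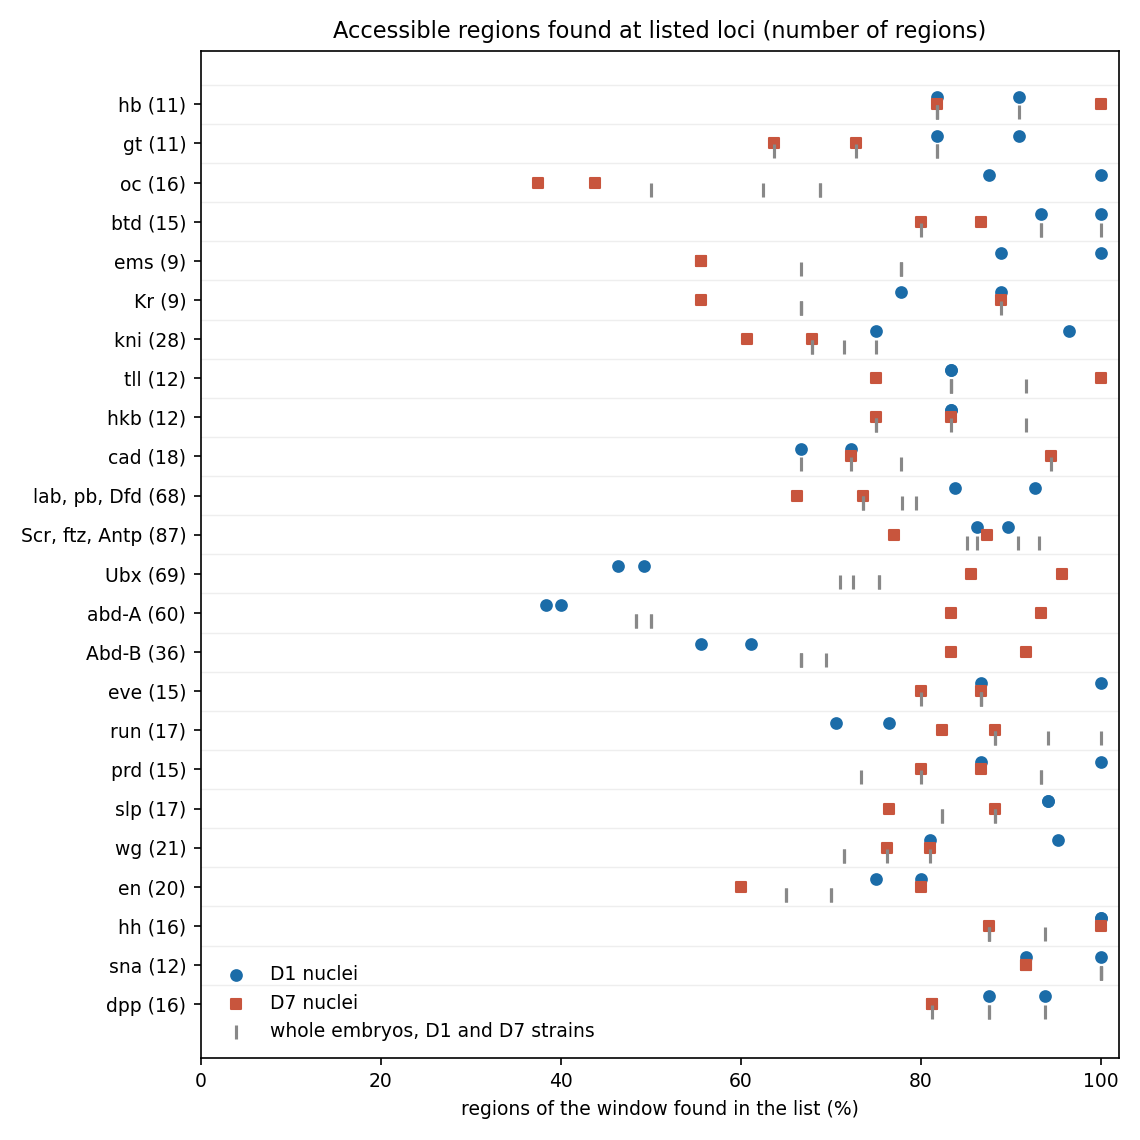
Share of the regions in each window, with the number of regions in brackets, that were found in the D1 lists (circles), the D7 lists (squares) and the 4 whole-embryo lists of the same strains (ticks), in %. D1 lies right of D7 at oc and ems and left of D7 at Ubx, abd-A and Abd-B.

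By presence the windows of the driver genes lay near all regions, with 1 of 22 regions (4.55%) D1-only against 4.91%. In the hunchback window 10 and 9 of 11 regions were found in D1 nuclei, and 11 and 9 in D7 nuclei, and 0 were called by presence. Of its 9 common regions 1 passed the threshold of 25 points for D1, against 1.16% of all common regions. That region, on 3R from 4513904 to 4514981, had folds of 5.35 and 5.32 in D1 against 2.39 and 2.71 in D7. In the giant window 10 and 9 of 11 regions were found in D1 nuclei and 8 and 7 in D7 nuclei, so the counts did not overlap. Of its regions 1 (9.09%) was D1-only. The difference of 2 regions was 1 at equal list length, where the counts overlapped. Of the 7 common regions in the giant window 1 also passed the threshold of 25 points for D1. It lay on X from 2326755 to 2327488, with folds of 7.43 and 5.61 in D1 against 3.44 and 3.05 in D7. giant has an anterior band of expression as well as the posterior band whose enhancer tags D7. The tag transgenes carry copies of enhancers from these loci, so peaks of the locus and of the transgene cannot be told apart.

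Windows of head gap genes had more regions in D1 nuclei. These genes, oc (orthodenticle), btd (buttonhead) and ems (empty spiracles), encode transcription factors that pattern the head. Of their 40 regions together, 39 and 37 were found in D1 nuclei and 25 and 23 in D7 nuclei. Whole embryos of the D1 strains had 32 and 26, and those of the D7 strains 32 and 32. In all, 11 of the 40 regions (27.5%) were D1-only, against 4.91% of all regions, and 0 were D7-only. The difference of 14 regions had an exact permutation p of 0.33.

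The oc window held most of them. Of its 16 regions, 16 and 14 were found in D1 nuclei and 7 and 6 in D7 nuclei, with 11 and 8 in whole embryos of the D1 strains and 11 and 10 in those of the D7 strains. Here 7 regions were D1-only, and 4 of the 7 were in none of the 4 lists of D2 and D3. Among all D1-only regions 256 (22.7%) were in none of those lists. A further region, on X from 8536415 to 8538451, was found at both ends with folds of 9.31 and 3.64 in D1 against 2.73 and 1.86 in D7. In the ems window 8 and 9 of 9 regions were found in D1 and 5 and 5 in D7. Its strongest shift was on 3R from 9736436 to 9737611, with folds of 10.2 and 9.39 in D1 against 2.48 and 2.97 in D7. In the btd window 15 and 14 of 15 regions were found in D1 and 13 and 12 in D7, and the region from 9583588 to 9584978 had folds of 6.73 and 5.25 in D1 against 2.03 and 2.55 in D7. Each of the 3 windows held 1 region past the threshold of 25 points for D1, against 1.16% of all common regions, and 0 for D7. By direction alone, 5 of 6 common regions at oc ranked higher in D1 in both replicates and 0 in D7. The common regions of the other windows did not follow, with 2 and 4 of 11 at btd and 1 and 2 of 4 at ems. Among all common regions these shares were 26.8% for D1 and 28.4% for D7.

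Trunk and terminal gap genes were mixed. Of their 79 regions 3 (3.80%) were D1-only and 1 (1.27%) D7-only, near the shares of all regions by presence. The rank calls below were among 15 common regions at kni, 9 at hkb, 9 at tll, 4 at Kr and 10 at cad. Of all common regions 1.16% were called for D1 and 0.777% for D7. The window of kni with its paralogue knrl, which encode gap factors, had 27 and 21 of 28 regions in D1 nuclei and 19 and 17 in D7 nuclei. In it 3 regions (10.7%, against 4.91% of all regions) were D1-only. The kni difference was 6 regions, and 3 at equal list length. This window held 2 regions past the threshold of 25 points for D1 and 1 for D7, on 3L from 20678403 to 20678841, with folds of 2.376 and 2.197 in D1 against 3.54 and 3.87 in D7. In the hkb window, at a terminal gap gene, 10 and 10 of 12 regions were found in D1 and 10 and 9 in D7. It held 2 regions ranked higher in D1; that on 3R from 177954 to 178826 had folds of 5.36 and 4.91 in D1 against 2.31 and 1.78 in D7. At tll, a gap gene of both termini, 10 and 10 of 12 regions were found in D1 and 12 and 9 in D7. The tll window held 1 region ranked higher at each end. The region from 26681721 to 26682920 had folds of 9.18 and 9.23 in D1 against 4.65 and 3.48 in D7, and that from 26674985 to 26675953 had 4.05 and 3.25 in D1 against 7.38 and 6.73 in D7. At Kr 8 and 7 of 9 regions were found in D1 and 8 and 5 in D7. At cad, a gene of posterior identity, 13 and 12 of 18 were found in D1 and 13 and 17 in D7, and 1 was D7-only. With lists of equal length the cad difference was -4 regions, against -2.5 as deposited, that at tll was -1 against -0.5, and that at Kr was 0 against 1. The counts at hkb, tll, Kr and cad overlapped between the bands as deposited, and at equal list length those at cad did not.

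The bithorax complex, whose genes specify the posterior thorax and abdomen, held the largest block of differences among the windows. Of 165 regions in its 3 windows, 79 and 76 were found in D1 nuclei and 155 and 139 in D7 nuclei. Whole embryos had 103 and 106 in the D1 strains and 104 and 105 in the D7 strains, between the bands and alike in both strains. In all, 48 regions (29.1%, against 1.27% of all regions) were D7-only, or 16.4% of all D7-only regions, and 0 were D1-only. The difference of -69.5 regions had an exact permutation p of 0.33. At equal list length it was also -69.5.

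The share of D7-only regions was highest in the abd-A window. There, 23 and 24 of 60 regions were found in D1 nuclei and 56 and 50 in D7 nuclei, and 21 (35%) were D7-only. In the Ubx window 34 and 32 of 69 were found in D1 and 66 and 59 in D7, and 21 (30.4%) were D7-only. In the Abd-B window 22 and 20 of 36 were found in D1 and 33 and 30 in D7, and 6 (16.7%) were D7-only.

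These D7-only regions differed between windows in where else they were found. Of the 21 in the Ubx window, 14 were in all 4 lists of D4 and D5, 13 in both lists of D6 and 9 in all 8 whole-embryo lists. Of the 21 in the abd-A window, 4 were in all 4 lists of D4 and D5, 5 in both lists of D6 and 2 in all 8 whole-embryo lists, while 14 (66.7%) were in no whole-embryo list. Among all D7-only regions 107 (36.6%) were in all 4 lists of D4 and D5 and 56 (19.2%) in both lists of D6. In whole embryos 58 (19.9%) of them were in all 8 lists and 36 (12.3%) in no list. An example in the abd-A window is the region on 3R from 12642303 to 12642928, with folds of 3.40 and 2.86 in D7. It had a peak in 1 of 4 lists of D4 and D5 and in 0 of 8 whole-embryo lists. In the Ubx window the region from 12588169 to 12588508 had folds of 4.16 and 3.63 in D7 and was found in all 4 lists of D4 and D5, both of D6 and all 8 whole-embryo lists. Of the 48 D7-only regions in the complex, 0 were in all 4 lists of D2 and D3 and 39 (81.2%) were in none of them, against 1.37% and 60.6% of all D7-only regions.

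**Figure D5:**
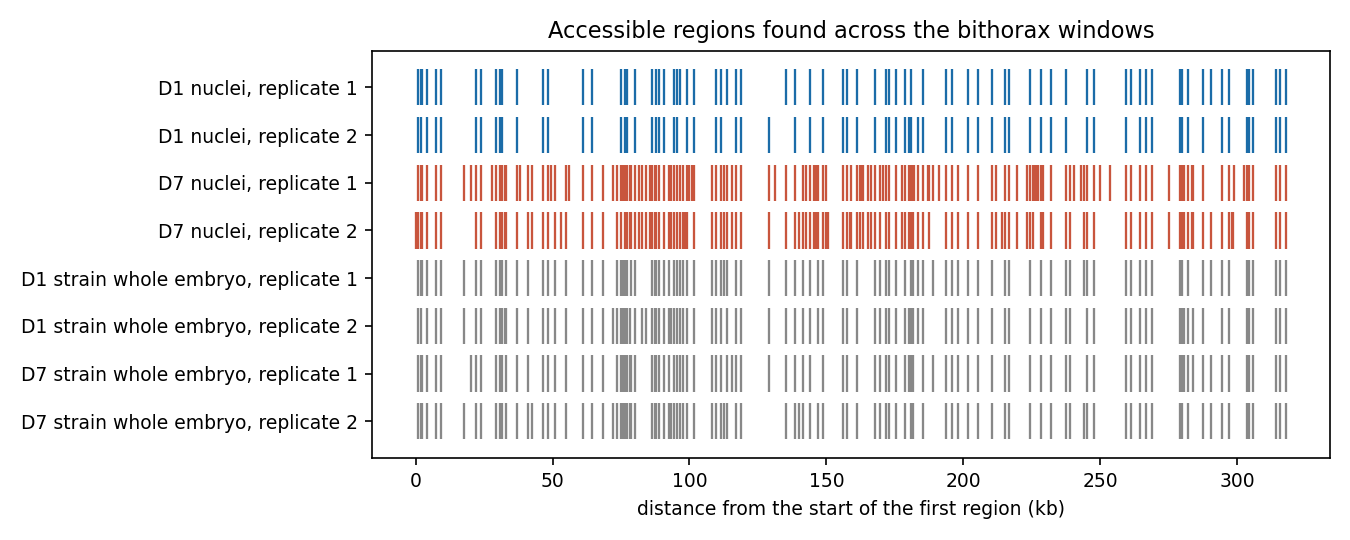
Regions of the 3 bithorax windows with a peak in each list, by distance in kb from the start of the first region; each line is 1 region. D1 nuclei (blue, 79 and 76 regions), D7 nuclei (red, 155 and 139) and whole embryos of the D1 and D7 strains (grey, 103 to 106) run from top to bottom, and the red rows are densest.

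Sites that D1 nuclei kept in the complex were mostly weaker there. Of 73 regions found in all 4 lists, 4 ranked higher in D1 and 55 ranked higher in D7 in both replicates, whereas among all common regions 26.8% ranked higher in D1 and 28.4% higher in D7 in both. By the threshold of 25 points, 0 were called for D1 and 15 for D7, against 1.16% and 0.777% of all common regions. On 3R from 12690345 to 12691301, in the abd-A window, the folds were 3.23 and 3.00 in D1 and 15.8 and 14.0 in D7. From 12716885 to 12718631, in the Abd-B window, they were 3.50 and 3.30 in D1 and 11.2 and 12.8 in D7.

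In the Antennapedia complex, which holds the Hox genes of the head and anterior thorax, presence and rank did not give a single direction. The part with lab, pb and Dfd, genes of the head segments, had 63 and 57 of 68 regions in D1 nuclei and 45 and 50 in D7 nuclei, with 6 D1-only (8.82%) and 0 D7-only. Of its 41 common regions, however, 7 ranked higher in D1 and 21 in D7 in both replicates, against 26.8% and 28.4% of all common regions. The 1 region past the threshold of 25 points, the region on 3R from 2630050 to 2630963, was called for D1 and had folds of 7.61 and 7.98 in D1 against 3.42 and 3.34 in D7. The part with Scr, ftz and Antp had 78 and 75 of 87 regions in D1 and 76 and 67 in D7, which overlap, and whole embryos of the D1 strains had 79 and 81 against 74 and 75 in the D7 strains. There 5 regions (5.75%) were D1-only and 1 (1.15%) D7-only, near the shares of all regions. Of its 61 common regions 14 ranked higher in D1 and 24 in D7 in both replicates, against the same shares of all common regions. By the threshold of 25 points 1 passed for D1 and 4 for D7, against 1.16% and 0.777% of all common regions. One of the 4, from 2790652 to 2791414, had folds of 2.52 and 2.74 in D1 against 8.98 and 8.94 in D7. The D1 minus D7 difference was 12.5 regions in the part with lab, pb and Dfd, and 5.5 at equal list length. In the part with Scr, ftz and Antp it was 5, and 0 at equal list length.

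Windows of pair-rule, segment polarity and dorsoventral genes held few regions called by presence. Of 64 regions at eve, run, prd and slp, 3 (4.69%) were D1-only and 1 (1.56%) D7-only. Of 57 at the segment polarity genes wg, en and hh, 3 (5.26%) were D1-only and 0 D7-only. Of 28 at sna and dpp, genes of dorsoventral patterning, 1 was D1-only. These shares lie near those of all regions. As deposited, counts did not overlap between the bands in 3 of the 9 windows, against 12 of all 24 windows. At slp 16 and 16 of 17 regions were found in D1 and 15 and 13 in D7, at dpp 14 and 15 of 16 in D1 and 13 and 13 in D7, and at run 12 and 13 of 17 in D1 and 15 and 14 in D7. At equal list length the differences at eve, prd, wg, en and dpp were 0 to 1 region, against 1.5 to 2 as deposited, and that at hh was -1.5 against 1. Single pair-rule regions did shift in rank, 4 towards D1 and 1, the run region given above, towards D7. They were among 12 common regions at eve, 11 at run, 12 at prd and 12 at slp. Of all common regions 1.16% were called for D1 and 0.777% for D7. At eve, the region on 2R from 5872929 to 5874782 had folds of 9.09 and 8.27 in D1 against 2.36 and 2.72 in D7. At prd, that on 2L from 12088991 to 12089909 had 7.81 and 5.86 in D1 against 2.44 and 3.06 in D7. At slp, that on 2L from 3824539 to 3825056 had 4.54 and 3.66 in D1 against 1.89 and 1.79 in D7. The eve stripe enhancers drive tags in other strains, not in those of D1 and D7.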

How the data were processed

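Per the file headers and the submitters' processing notes, the deposited files are MACS2 2.1.1.2 peak lists on dm3, 1 per library, with Bowtie2 2.2.9, SAMtools 1.3.1 and rtracklayer 1.40.3 also named. The deposited score is 10 times the -log10 q of a peak, and the authors' fold is its enrichment over genomic DNA. Other settings are not given in the sources used here, and no read depth is known. Peaks on 6 arms sharing 1 bp or more were joined into regions, with python 3.11.15, numpy 2.4.6 and scipy 1.17.1, and plots were made with matplotlib 3.10.9. A region was found in a list that had a peak in it, and its fold was the highest of its peaks. Differences between lists were tested by exact permutation, and scripts were tested on simulated data.

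The members, windows and lists were chosen with earlier results of these data known. Named were the 24 windows, the strongest regions of each call and the densest bins, with further called regions inside the windows chosen after their values were seen. The midpoint rule for windows was set after values were seen. Of 32 gene symbols 31 matched the RefSeq table of Release 6, and the window without a match was dropped. That table was also compared by eye with the windows, and no window was changed. Alternatives included equal list lengths, other merging, other thresholds and lists left out. Replicates are separate strains, and p-values come from exchanging lists. Those for D2 to D6 mix the spread between bands with that between the strains of a band, except where bands were the units.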

Additional observations from a re-analysis of the deposited data

Results flagged for a closer look

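In the abd-A window the mean number of regions was 29.5 lower in D1 than in D7 nuclei (-29.5), with every D1 list below every D7 list, while whole embryos of the D1 strains had 1 region more than those of the D7 strains. In the slp window D1 nuclei had 2 regions more than D7 nuclei, while whole embryos of the D1 strains had 1 fewer (-1). Neither difference between tagged nuclei and whole embryos was tested. Among the 8 whole-embryo lists, replicate 1 of the D4 strains stood apart from the others in the median percentile of D1-higher minus D7-higher regions, with -11.7 points. Chance sets an extreme list apart in this way in about 1 in 20 groups.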

How the results depend on the processing

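The number of D1-only and of D7-only regions changed with the processing, and D1-only stayed the larger in each setting named here. At equal list length D7-only came to 617 by fold, and the counts were 658 and 588 by width. Keeping the 50% of peaks with the highest folds gave 634 and 177, and bins of 500 bp gave 2179 and 655. With 1 list left out the ranges were 1626 to 3777 for D1-only and 492 to 1045 for D7-only. The rank counts were 461 and 343 at 15 points and 59 and 43 at 35 points, and with 1 list left out 460 to 962 for D1 and 453 to 808 for D7, since calls then rest on fewer lists. Deviations of same-numbered D1 and D7 lists correlated at 0.514 in rank and 0.00423 in presence. Same-numbered lists thus deviated together in rank, and they are lists of the same kind, but the numbers name independent strains and 2 pairs are too few to treat them as a pairing. With the replicate block, D1-only and D7-only came to 4665 and 1419 within replicate 1 and 2741 and 1631 within replicate 2, and rank calls to 458 and 453 and to 936 and 790, each from 1 pair of lists.

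Covered length reversed to -0.0693 Mb without D1 replicate 1, against a range of up to 1.95 Mb with another list left out. The overlap within bands minus between bands reversed to -0.158 points without D7 replicate 1, with up to 6.03 points otherwise. Without D7 replicate 1 the D1 minus D7 difference was 0.5 regions at hb, 1 at tll, -0.5 at en and 2.5 at Kr. Without D7 replicate 2 it was -0.5 at Kr, -2 at tll and 3.5 at en. At equal list length it was -1.5 at hh. The difference between anterior and other bands lost its call with bands as units, where 50.2 and 43.9 points each had an exact permutation p of 0.100, and 0.100 is the smallest p for 2 bands against 3. The cause of the reversals was not tested. Of 263 alternatives, 220 were not reversed and kept their side of the threshold, or stayed within 1.5 times for counts. A difference that fell to 0 counted as not reversed. Single windows gave 144 of the 263 and 139 of the 220. Their exact p cannot go below 0.33, so their side of the threshold was fixed in advance. At equal length the difference in list length is 0 by construction and was not computed.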
